A study of Homo sapiens with 4 samples.

Results

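Amino acid transporters of the plasma membrane were examined in LNCaP cells, an androgen-responsive line of human prostate cancer cells, with and without extra MED1. The genes were SLC7A11, SLC3A2, SLC7A5, SLC7A1, SLC1A4, SLC1A5, SLC38A1, SLC38A2 and SLC43A1, and every probe set whose platform annotation named 1 of these 9 genes alone was used. There were 19 such probe sets among the 19064 that named 1 gene, for 9 of the 11963 genes so named, and no probe set named a member together with another gene. The groups were cells transiently transfected with a vector for MED1, the Mediator subunit through which many nuclear receptors contact the complex, and cells transfected with the empty vector, with 2 samples each. Both groups were LNCaP cells grown in serum-containing medium and transfected by lipofection, and RNA was taken 24 hours later. Transient transfection reaches only some cells of a culture, so each signal is an average over cells with and without the vector. The values are MAS5 signals, a scaled fluorescence intensity per probe set and array. The members are plasma membrane amino acid transporters selected on their role and with the MED1 against empty vector log2 fold changes of these 4 samples already known, so their differences between MED1 and empty vector samples are descriptions. No member is given a p-value or a call of its own, and counts of members past a threshold are printed beside those of all probe sets.

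Amino acids cross the plasma membrane through carriers, many of which exchange one amino acid for another or take one up together with sodium. Several carriers of the SLC7 family are light chains that reach the cell surface only when bound to a common heavy chain, SLC3A2. When amino acids run short or proteins misfold, phosphorylation of the initiation factor eIF2 favours translation of the transcription factor ATF4, and a number of transporter genes are among its known targets. SLC7A11 is also a known target of NRF2, the transcription factor of the antioxidant response, because the cystine it imports feeds glutathione synthesis. In prostate cancer cells SLC1A5, SLC7A5 and SLC43A1 are known as routes for glutamine and leucine, and androgen is known to raise SLC43A1.

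The DNA before the start sites was searched for the elements through which ATF4 and NRF2 are known to act. RefSeq start sites on GRCh38.p14 gave 15 windows of 250 bases for 8 of the 9 genes, all but SLC7A11. TGATGNAAN, the composite element bound by ATF4 with C/EBP partners, was found in 1 of the 15 windows on either strand, where 3.13% of 35116 windows of all genes hold it. Its strict form TGATGCAAT, a subset of these matches, was found in 0 of the 15 and in 0.216% of all windows. TGACNNNGC, the core of the antioxidant response element, was found in 3 of the 15 windows, where 10.9% of all windows hold it. These were 1 window each of SLC3A2, SLC7A1 and SLC1A5. The 1 match of TGATGNAAN lay in another SLC1A5 window, which is the SLC1A5 window printed below. No match overlapped another. The windows of 3 genes are printed here because they show the matched elements in their surroundings. They read 5′ to 3′ on the gene's strand and end at the base before the start site, and capitals mark the match. The SLC3A2 window is chr11:62881449-62881698 on the plus strand and belongs to 1 of 3 start sites, with TGACTCAGC from 37 to 29 bases before the start. The SLC7A1 window is chr13:29595689-29595938 on the minus strand, with TGACGCGGC from 85 to 77 bases before the only listed start. The SLC1A5 window is chr19:46784815-46785064 on the minus strand, at 1 of 3 start sites, with TGATGCAAG from 97 to 89 bases before it. A match describes letters in a window and is no evidence that a factor binds there. Only the 250 bases before each start site were searched, so a window without a match does not show that the gene lacks an element.
SLC3A2: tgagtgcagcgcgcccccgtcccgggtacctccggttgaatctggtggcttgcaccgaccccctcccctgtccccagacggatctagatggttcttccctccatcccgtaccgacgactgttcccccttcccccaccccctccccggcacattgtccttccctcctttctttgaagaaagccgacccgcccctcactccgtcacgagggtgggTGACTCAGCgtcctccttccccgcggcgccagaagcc
SLC7A1: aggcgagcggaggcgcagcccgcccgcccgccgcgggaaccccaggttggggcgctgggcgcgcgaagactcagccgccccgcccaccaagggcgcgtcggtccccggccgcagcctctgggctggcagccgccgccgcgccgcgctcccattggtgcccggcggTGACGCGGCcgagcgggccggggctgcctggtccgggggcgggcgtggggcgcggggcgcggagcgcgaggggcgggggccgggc
SLC1A5: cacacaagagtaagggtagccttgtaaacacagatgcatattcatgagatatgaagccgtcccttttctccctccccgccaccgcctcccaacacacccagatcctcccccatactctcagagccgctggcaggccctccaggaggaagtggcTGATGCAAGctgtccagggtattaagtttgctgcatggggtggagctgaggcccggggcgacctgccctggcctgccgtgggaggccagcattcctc

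The 4 arrays resembled each other closely, and Pearson's r of the log2 values over 13329 tested probe sets was 0.992 within MED1, 0.990 within empty vector and between 0.985 and 0.990 across groups. Of 2 MED1 probe sets, 1 was higher in the cells given the MED1 vector, at 559 and 807 against 292 and 315, and the other overlapped between groups, at 1172 and 1074 against 1097 and 1011. Luminal prostate markers were present. On its brighter probe set KLK3 (prostate-specific antigen) read 3659 and 3990 in the MED1 samples, against 4166 and 4208 in the empty vector samples. Its other probe set overlapped between groups, at 1807 and 2742 with MED1 against 2690 and 2355 with empty vector. Summed over 11 probe sets of 7 luminal genes, the signal was 27323 and 29571 with MED1, against 29371 and 31448 with empty vector. The median log2 fold change over these 11 luminal probe sets was -0.13. Of the 11, 6 had both MED1 arrays below both empty vector arrays, and 0 had both above. Over all tested probe sets the shares were 22.6% and 17.2%. Of the 11, 0 passed the threshold used below (limma). At an unadjusted p under 0.05 (limma), 3 were lower and 0 higher, against 5.21% and 3.98% of all tested probe sets. The part of this luminal difference in the transporter differences was not tested. The sums of 6 basal, 16 fibroblast and 10 leukocyte and endothelial probe sets stayed between 142 and 370 with MED1 and between 107 and 358 with empty vector. PTPRC, the pan-leukocyte marker CD45, read at most 12.4 with MED1 and 14.4 with empty vector on any of its probe sets. The brightest of the leukocyte and endothelial probe sets was VWF, at 118 and 150 with MED1 and 131 and 130 with empty vector. The actin controls read brighter at their 3′ than at their 5′ end by a ratio of 9.40 and 9.32 with MED1 and 8.14 and 9.45 with empty vector, and the GAPDH controls by 1.16 and 1.24 with MED1 and 1.16 and 1.27 with empty vector.

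The SLC7A11 signal in the cells given MED1 was 34.4% and 29.3% of its empty vector mean on its bright probe sets, and the other 8 transporters also read lower on every tested probe set. The log2 differences of those 8 genes ran from the neutral amino acid exchanger SLC1A4, whose 3 tested probe sets lay between -0.94 and -1.25 on the log2 scale, to SLC43A1 at -0.16. Of the 19 probe sets, 16 passed the filter on dim probe sets (a mean signal of at least 32.2 over the 4 arrays, the 40th percentile) and were tested. Of these 16, 2 were lower at a Benjamini-Hochberg adjusted p under 0.05 in a limma fit across all probe sets, and 0 were higher, where 0.188% of all 13329 tested probe sets were lower and 0.12% higher. At an unadjusted p under 0.05, 11 of the 16 were lower and 0 higher, where 5.21% of all were lower and 3.98% higher. On all 16 both MED1 arrays lay below both empty vector arrays, as they did on 22.6% of all tested probe sets. On 17.2% of all tested probe sets, and 0 of the 16, both lay above. The median log2 fold change of the 16 was -0.55, against -0.02 over all tested probe sets. Because the genes were chosen with this contrast known, nothing is read from these counts. The number of member probe sets past the threshold was 0 when dim probe sets were kept, where 0 of all 22215 passed. It was also 0 when limma fitted no variance trend, where 7 of all 13329 passed. On leaving out an array, the median of the 16 ranged from -0.49 without MED1 replicate 1 to -0.60 without MED1 replicate 2. Over all tested probe sets the median was -0.01 and -0.02 in these 2 fits. In a bulk sample, fewer cells expressing a transporter and less RNA per cell cannot be told apart, nor can an effect of MED1 be told apart from a difference in transfected DNA between the vectors.

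**Figure D1:**
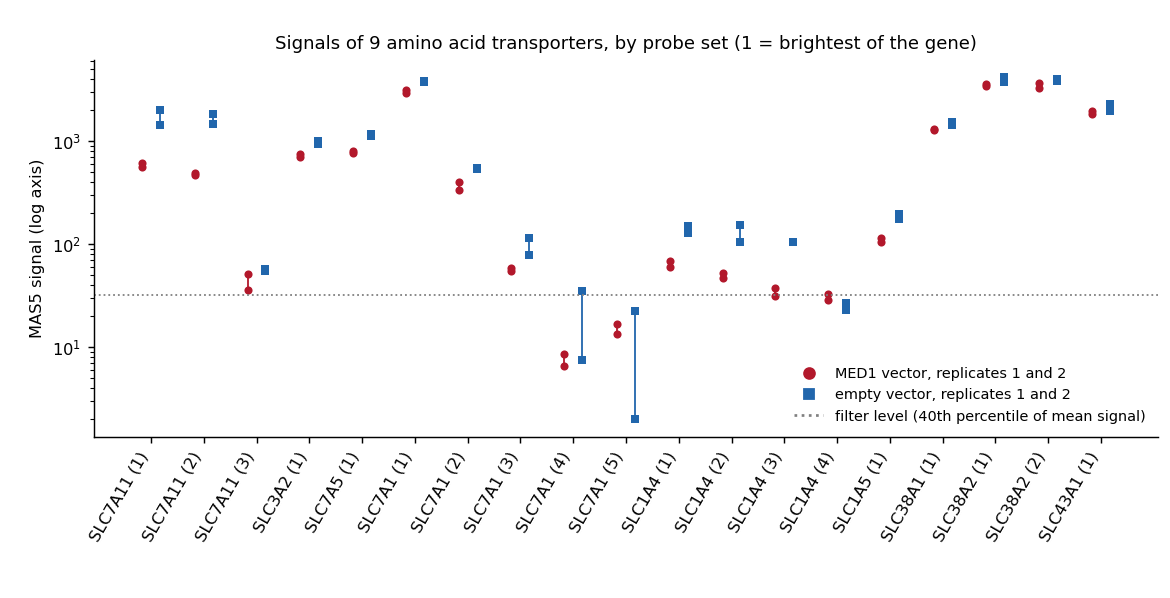
MAS5 signal (log axis) of each of the 19 transporter probe sets in the MED1 samples (circles) and the empty vector samples (squares). Lines join the 2 replicates of a group, and numbers in brackets rank a gene's probe sets by signal. SLC7A11 (1) and (2) and SLC1A4 (2) and (3) show the widest gaps between groups among the probe sets above the filter level (dotted line, 32.2).

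SLC7A11, or xCT, is the light chain of system xc-, which imports cystine in exchange for glutamate and so supplies the cysteine for glutathione. Its brightest probe set (209921_at) read 616 and 559 in the MED1 samples, against 1996 and 1425 in the empty vector samples. The second (217678_at) read 469 and 485 in the MED1 samples, against 1808 and 1448 in the empty vector samples. On both probe sets the MED1 arrays lay close together and far below the empty vector arrays, of which replicate 1 was the higher on each. The means were 587 ± 40.6 with MED1 and 1710 ± 404 with empty vector for the first, a log2 fold change of -1.50 ± 0.15 (SE), so that the MED1 mean was 34.4% of the empty vector mean. For the second they were 477 ± 11.5 and 1628 ± 254 (SD, n = 2), a log2 fold change of -1.73 ± 0.12, or 29.3% of the empty vector mean.

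The dimmest SLC7A11 probe set (207528_s_at) lay near the filter level and gave a smaller difference. It read 51.2 and 35.7 in the MED1 samples, against 56.8 and 55.2 in the empty vector samples, so the groups did not overlap but the MED1 replicates differed more from each other than the nearer one did from the controls. Its log2 fold change was -0.29 ± 0.25. Leaving out MED1 replicate 2 gave -0.10, and leaving out MED1 replicate 1 gave -0.48. With a pseudocount of 1 in place of 16 it was -0.38 and the brightest probe set -1.52, and with a pseudocount of 64 they were -0.16 and -1.43, so the probe sets differed under each of these settings.

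SLC3A2, also called 4F2hc or CD98, is the heavy chain that carries SLC7A11 and SLC7A5 to the cell surface. Its only probe set read 754 and 701 in the MED1 samples, against 936 and 991 in the empty vector samples. The groups did not overlap, and the log2 fold change was -0.40 ± 0.10. SLC7A5, or LAT1, is the light chain that exchanges large neutral amino acids such as leucine. Its only probe set read 766 and 801 in the MED1 samples, against 1117 and 1164 in the empty vector samples. Replicates of SLC7A5 differed little beside the distance between groups, and its log2 fold change was -0.53 ± 0.10.

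The chains of these heterodimers were also set against each other within each array. The ratio of the brightest SLC7A11 signal to the SLC3A2 signal within an array was 0.817 and 0.797 in the MED1 samples, against 2.13 and 1.44 in the empty vector samples. The same ratio for SLC7A5 over SLC3A2 was 1.02 and 1.14 in the MED1 samples, against 1.19 and 1.17 in the empty vector samples. Neither ratio overlapped between groups. For SLC7A5 over SLC3A2, however, the MED1 samples differed more from each other than the nearer one did from the empty vector samples. The log2 change of SLC7A11 minus that of SLC3A2 was -1.10, and that of SLC7A5 minus that of SLC3A2 was -0.14. Different probe sets bind with different strength, so such a ratio says nothing about how many transcripts of each gene a cell holds. With 2 arrays against 2 an exact two-sided permutation test of a ratio cannot go below p = 0.333, so none was made.

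SLC7A1, or CAT1, imports the cationic amino acids arginine and lysine and needs no heavy chain. Its brightest probe set (212295_s_at) read 2924 and 3143 in the MED1 samples, against 3766 and 3821 in the empty vector samples. The second (212290_at) read 332 and 398 in the MED1 samples, against 540 and 545 in the empty vector samples. The third (212292_at) read 55.3 and 59.1 in the MED1 samples, against 114 and 77.7 in the empty vector samples. All 3 had both MED1 arrays below both empty vector arrays. Their log2 fold changes were -0.32 ± 0.09, -0.56 ± 0.12 and -0.59 ± 0.23, so the estimates lay closer to each other than the 3 SLC7A11 estimates did. The other SLC7A1 probe sets were too dim to be tested. One (215979_s_at) read 6.61 and 8.60 in the MED1 samples, against 7.46 and 35.1 in the empty vector samples. The other (206566_at) read 13.4 and 16.7 in the MED1 samples, against 22.5 and 1.98 in the empty vector samples. On both the groups overlapped, and the empty vector replicates were the farther apart.

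**Figure D2:**
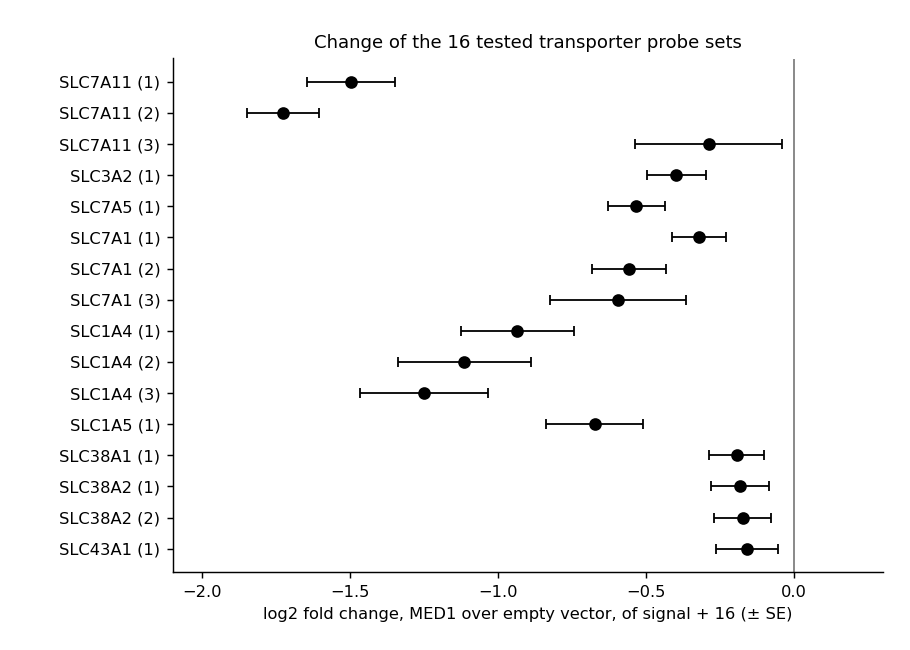
Log2 fold change of MED1 over empty vector (x axis, signal + 16, ± SE of limma) for the 16 tested transporter probe sets, ranked by signal within a gene (brackets). All 16 lie below 0, SLC7A11 (1) and (2) at -1.50 and -1.73 and SLC43A1 at -0.16.

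The sodium-dependent exchangers of the SLC1 family gave the next lowest values. SLC1A4, or ASCT1, exchanges alanine, serine and cysteine. Its brightest probe set (212811_x_at) read 59.9 and 68.7 in the MED1 samples, against 127 and 148 in the empty vector samples. The second (209610_s_at) read 52.3 and 47.0 in the MED1 samples, against 151 and 105 in the empty vector samples. The third (212810_s_at) read 37.4 and 31.6 in the MED1 samples, against 104 and 104 in the empty vector samples. The MED1 signals were 46.7%, 38.8% and 33.2% of the empty vector means, and no group overlapped on any of the 3. The log2 fold changes were -0.94 ± 0.19, -1.11 ± 0.22 and -1.25 ± 0.22. At these low signals the size depends on the pseudocount, and for the third probe set it was -0.77 with a pseudocount of 64. The dimmest probe set (209611_s_at), under the filter level and not tested, ran the other way, at 28.3 and 32.6 in the MED1 samples against 26.7 and 23.1 in the empty vector samples.

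SLC1A5, or ASCT2, the exchanger best known for glutamine, read 114 and 106 in the MED1 samples, against 173 and 196 in the empty vector samples. Its MED1 mean was 59.3% of the empty vector mean, with a log2 fold change of -0.67 ± 0.16. The groups did not overlap.

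Of the sodium-coupled neutral transporters SLC38A1 and SLC38A2, the difference of SLC38A2 lay near the spread between replicates. The same held for SLC43A1, a carrier of another family described below. The replicates of SLC38A1 lay 0.04 (MED1) and 0.09 (empty vector) apart on the log2 scale, less than its difference between groups. SLC38A1, or SNAT1, read 1314 and 1276 in the MED1 samples, against 1434 and 1532 in the empty vector samples, a log2 fold change of -0.19 ± 0.09. SLC38A2, or SNAT2, the system A carrier known to be induced by amino acid shortage, read 3377 and 3587 in the MED1 samples, against 4183 and 3733 in the empty vector samples, on its brighter probe set (218041_x_at). Its other probe set (220924_s_at) read 3293 and 3654 in the MED1 samples, against 3837 and 3988 in the empty vector samples. Both SLC38A2 probe sets gave nearly the same value, -0.18 ± 0.10 and -0.17 ± 0.10. The first was -0.10 without empty vector replicate 1 and the second -0.10 without MED1 replicate 1.

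SLC43A1, or LAT3, a carrier of leucine and other branched amino acids that needs no heavy chain, read 1938 and 1827 in the MED1 samples, against 1939 and 2277 in the empty vector samples. The higher MED1 array and the lower empty vector array were almost equal. The log2 fold change was -0.16 ± 0.11, and it was -0.04 without empty vector replicate 2 and -0.27 without empty vector replicate 1.

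Other carriers of amino acids, from lists set up beside these 9 genes, gave values on both sides of 0. Of 29 further plasma membrane amino acid transporters, 22 had a probe set and 6 had one above the filter. Of their 9 tested probe sets 0 passed in either direction (limma). At an unadjusted p under 0.05 (limma), 0 were lower and 1 was higher, against 5.21% and 3.98% of all tested probe sets. The median change of the 9 was 0.03 on the log2 scale. Of the 9, 1 had both MED1 arrays below both empty vector arrays and 3 had both above. Over all tested probe sets the shares were 22.6% and 17.2%. The one higher was SLC1A3, a glutamate transporter best known from glia, at 52.1 and 81.1 in the MED1 samples against 30.1 and 29.7 in the empty vector samples (log2 fold change 0.82 ± 0.27, adjusted p = 0.405). Its empty vector mean of 29.9 lies under the filter level, so it was tested only because its MED1 signals are higher, and nothing is read from that count. SLC38A4 gave 0.28 ± 0.23 (adjusted p = 0.746) and SLC1A1, a neuronal and epithelial glutamate transporter, -0.12 ± 0.17 (adjusted p = 0.871).

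Carriers of the lysosome and the mitochondrion were also compared. Of 15 tested probe sets of 11 such genes 0 passed in either direction (limma), with a median of 0.05. At an unadjusted p under 0.05 (limma), 0 were lower and 1 was higher, against 5.21% and 3.98% of all tested probe sets. On 2 of the 15 both MED1 arrays lay below both empty vector arrays, against 22.6% of all tested probe sets. On 5 both lay above, against 17.2%. SLC25A44, a mitochondrial carrier of branched-chain amino acids, gave 0.33 ± 0.13 on its brightest probe set (adjusted p = 0.476) and 0.14 ± 0.16 on another. The serine carrier SFXN1 gave 0.21 ± 0.11 (adjusted p = 0.591). SLC25A38, the mitochondrial glycine carrier, gave -0.18 ± 0.10 (adjusted p = 0.617). Among 153 tested probe sets of 112 SLC genes in none of these lists, 0 passed (limma), with a median of 0.03. At an unadjusted p under 0.05 (limma), 8 were lower and 12 higher, against 5.21% and 3.98% of all tested probe sets. The lowest unadjusted p among the 153 belonged to SLC35E1, a sugar transporter family member, at 0.51 ± 0.12 (adjusted p = 0.245).

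Of the genes of the ATF4 response that are not transporters, 11 of 33 tested fell in the same samples. The list held 39 genes, and of its 42 tested probe sets 13 fell and 0 rose (limma, Benjamini-Hochberg adjusted p under 0.05), where 0.188% of all tested probe sets fell. The list was chosen with earlier results of these data known, so its count is no independent evidence. Their median change was -0.46 on the log2 scale. On 34 of the 42 probe sets both MED1 arrays lay below both empty vector arrays, against 22.6% of all tested probe sets. The other 8 overlapped between groups. ASNS, asparagine synthetase, fell to 2455 and 2547 in the MED1 samples, against 3778 and 3690 in the empty vector samples (log2 fold change -0.58 ± 0.09, adjusted p = 0.0409). CEBPG, a C/EBP partner of ATF4, fell to 915 and 916 in the MED1 samples, against 1454 and 1438 in the empty vector samples (-0.65 ± 0.09, adjusted p = 0.0233). PCK2, the mitochondrial phosphoenolpyruvate carboxykinase, read 1079 and 1053 in the MED1 samples, against 1695 and 1705 in the empty vector samples (-0.67 ± 0.09, adjusted p = 0.0198). DDIT4, an inhibitor of mTORC1, read 4873 and 4845 in the MED1 samples, against 8138 and 7840 in the empty vector samples (-0.72 ± 0.09, adjusted p = 0.0169). The other 7 genes that fell were CARS1, CEBPB, CHAC1, DDIT3, NUPR1, STC2 and TRIB3. The number of list probe sets past the threshold was 0 when dim probe sets were kept, where 0 of all probe sets passed. It was also 0 when no variance trend was fitted, where 7 of all passed. On leaving out an array, the median of the list ranged from -0.36 without MED1 replicate 1 to -0.55 without MED1 replicate 2.

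Glutathione and NRF2 target genes, the other setting in which SLC7A11 is known, were spread around 0. Of 30 tested probe sets of 20 genes 0 passed (limma), with a median of -0.01. At an unadjusted p under 0.05 (limma), 2 were lower and 2 higher, against 5.21% and 3.98% of all tested probe sets. On 9 of the 30 both MED1 arrays lay below both empty vector arrays, against 22.6% of all tested probe sets. On 5 both lay above, against 17.2%. HMOX1, heme oxygenase 1, read 328 and 284 in the MED1 samples, against 220 and 232 in the empty vector samples (0.41 ± 0.14, adjusted p = 0.43). TXNRD1, thioredoxin reductase 1, gave 0.12 ± 0.09 (adjusted p = 0.713). GCLM, the modifier subunit of glutamate-cysteine ligase, gave -0.15 ± 0.12 (adjusted p = 0.731).

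**Figure D3:**
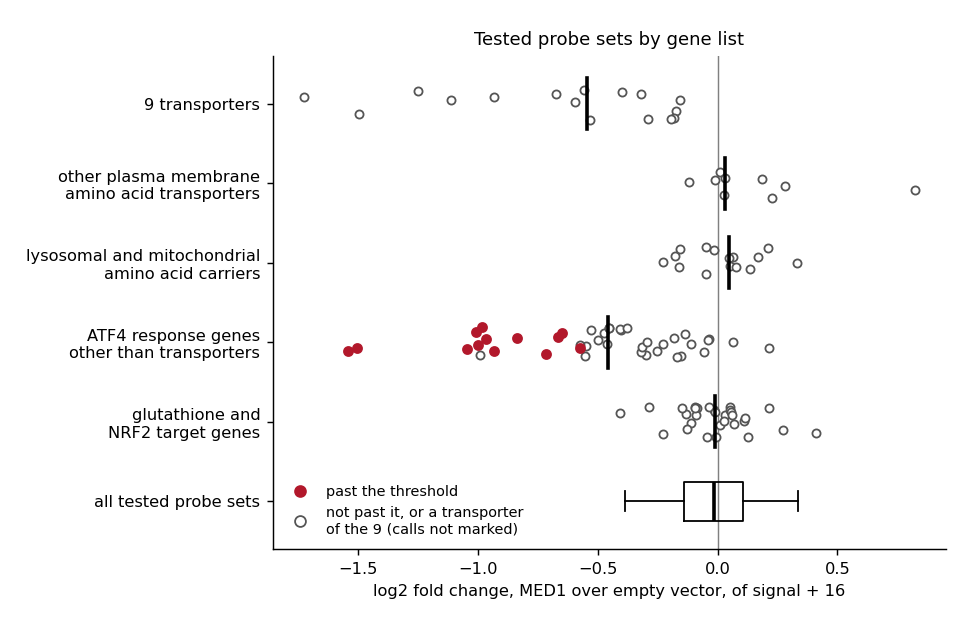
Log2 fold change of MED1 over empty vector (x axis, signal + 16) of tested probe sets by gene list, with points past the threshold filled (not marked for the 9 transporters), a bar at each list's median and random vertical scatter. The box shows the quartiles of all 13329 tested probe sets with whiskers at the percentiles 5 and 95. The 9 transporters have a median of -0.55 and the ATF4 response genes -0.46, while the other 3 lists drawn have medians between -0.01 and 0.05.

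The genes whose pattern over the 4 arrays was most like that of the brightest SLC7A11 probe set were found by the root mean square difference of log2 values, each centred on its own mean, among 7958 other genes. The nearest 5 were TRIM66, CHAC1, DDIT3, APOE and CEBPB, at differences of 0.264, 0.274, 0.287, 0.292 and 0.306. CHAC1, which degrades glutathione, read 97.6 and 136 in the MED1 samples, against 360 and 374 in the empty vector samples. TRIM66 was dim, at 31.0 and 30.5 in the MED1 samples against 96.1 and 59.7 in the empty vector samples, and it shared with SLC7A11 a higher value in empty vector replicate 1. APOE, apolipoprotein E, was also dim, at 27.8 and 29.8 in the MED1 samples against 81.8 and 99.1 in the empty vector samples. The MED1 means of TRIM66 and APOE, 30.7 and 28.8, lie under the filter level. Both were compared only because their empty vector signals are higher, so nothing is read from their place in this order. CHAC1, DDIT3 and CEBPB are also among the ATF4 response genes above. Of the other 8 transporters, SLC1A4 stood nearest in this order at rank 18, followed by SLC1A5 at 50 and SLC7A5 at 100, and SLC43A1 stood last at 2005. With 4 arrays in 2 groups, this measure mostly orders genes by the size and direction of their group difference.

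**Figure D4:**
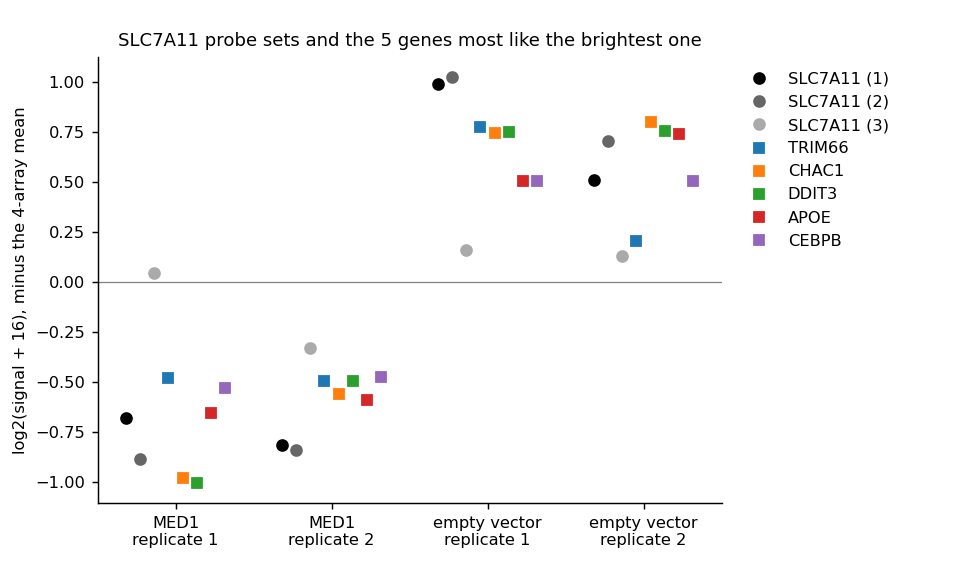
Log2(signal + 16) minus the mean of the 4 arrays (y axis) in each sample (x axis) for the 3 SLC7A11 probe sets (circles, ranked by signal in brackets) and the 5 genes most like the brightest one (squares). SLC7A11 (1), SLC7A11 (2) and the 5 genes lie below 0 in both MED1 samples and above 0 in both empty vector samples, and SLC7A11 (3) lies between -0.33 and 0.16.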

How the data were processed

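Expression was measured on 4 arrays. The authors' deposited values are MAS5 signal intensities, given per the submitters' processing notes without a version. MAS5 scales each array to a common target, and the mean after trimming was alike on all 4 (500.2), so nothing was rescaled. Further upstream steps: not given in the sources used here. Detection calls were not used. Groups were taken from the titles. The description field names the MED1 vector for all 4 samples, and the title and the transfection label were followed instead.

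Of 22277 probe sets 62 Affymetrix controls were dropped. The platform annotation named the genes, updated through Entrez identifiers (19052 of 19064 matched RefSeq). Signals were transformed to log2(value + 16), which understates changes of dim genes, and 13329 probe sets with a mean signal at or above the 40th percentile were fitted with limma 3.58.1 in R 4.3.3 (lmFit, eBayes with an intensity trend, Benjamini-Hochberg, two-sided, threshold 0.05). SE is limma's and SD is between the 2 samples of a group. The labels do not say whether duplicates were separate cultures. The p-values therefore reflect only these samples' spread, possibly technical and mostly borrowed from other probe sets (7.12 prior against 2 residual degrees of freedom). The number of arrays limits the precision. In simulated data of 13329 probe sets with 200 changed, recovery for MED1 against empty vector was 25% of probe sets changed 1.5-fold and 70.4% of those changed 2-fold. Plots used matplotlib 3.10.9.

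The members and lists were chosen with earlier results of these data known. Genes named are the members, MED1, those of each list past the threshold or among its 3 of lowest unadjusted p by brightest probe set, likewise other SLC genes past the threshold, and the 5 most like SLC7A11. PTPRC and SLC35E1 fall outside this rule and were named after their values were seen.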

Additional observations from a re-analysis of the deposited data

How the results depend on the processing

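The 16 tested transporter probe sets read lower in the MED1 samples under each of 14 alternatives that kept them, and 201 of 218 comparisons with the main values kept direction and side of the threshold. The alternatives were pseudocounts of 1 and 64, centring on the median, quantile normalization, no filter and a filter at the 60th percentile (which kept 10 of the 16). Further ones were a filter on mean log2 values (chosen after seeing the data), robust eBayes, eBayes with no trend, the replicate block, and leaving out each array. Of these, only centring and quantile normalization could have reversed a direction. The filter, eBayes and block settings leave the fold change itself as it was. On all 16 both MED1 arrays lay below both empty vector arrays, so a pseudocount or leaving out an array cannot reverse it. All probe sets past the threshold numbered 41, but 0 with no filter (limma, 1680 at an unadjusted p under 0.05), 7 with no trend in eBayes, and from 26 to 234 on leaving out an array. Members past it numbered 2, but 0 with no filter or no trend (11 at an unadjusted p under 0.05 in both) and from 2 to 7 on leaving out an array, where the lone sample is assumed to vary like the other group. With the replicate block 230 probe sets passed, among them 8 member probe sets and 23 of the ATF4 list in place of 13. The duplicates share only a number, with a correlation of 0.12 between same-numbered deviations over 2 pairs. The other plasma membrane transporters stayed at 0 throughout. The log2 fold change of the brightest SLC7A11 probe set ranged from -1.74 to -1.26 and that of the second from -1.89 to -1.57. Centring moved the median of all tested probe sets to 0.04 and that of the members to -0.49. The cause of these differences was not tested. Signals near the filter level have no known background without detection calls.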
